A study of Mus musculus with 16 samples.

Results

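Heat shock protein and DNAJ genes encode many of the molecular chaperones of the cell. They were taken here as every gene of the deposited expression table whose symbol begins with Hsp followed by a letter from a to e or a digit, or with Dnaja, Dnajb or Dnajc followed by a number. The rule used names only and found 62 of the 17951 genes in the table, of which 12919 carried a symbol. There were 23 Hsp genes and 39 Dnaj genes. By textbook location, 15 with Hsp symbols were cytosolic or nuclear (called heat shock protein genes below, Hspbp1 included). Another 21 were cytosolic or nuclear DNAJ genes, 14 belonged to the endoplasmic reticulum (ER), 10 to mitochondria, and Hspbap1 and Hspb11 were left unclassified. Another 10 chaperone genes of the same lists, among them the small heat shock protein genes Hspb1 and Hspb8, had no row in the table.

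RNA was sequenced from microglia, the resident macrophages of the brain, of 5xFAD transgenic (TG) mice and wild-type (WT) mice. The cells were sorted as live CD11b+ CD45+ cells, and the study's methods also list CX3CR1+ in the gate. The 5xFAD line carries human transgenes, expressed in neurons under the Thy1 promoter, that lead to amyloid deposits in the brain. All animals, controls included, had received methoxy-X04 (Me-X04), a dye that enters the brain and binds amyloid, and TG cells were sorted into those without dye signal (TG Me-X04-, 5 libraries) and those with it (TG Me-X04+, 4 libraries). The 7 WT libraries came from dye-negative cells. By the labels, WT mice were 2 months old and TG mice 6 months old, while the study's methods give closer ages for both, and where the ages differ, genotype and age cannot be told apart in a comparison with WT. Each library of a group came from a different animal, and 4 TG animals gave both a Me-X04- and a Me-X04+ library.

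Chaperones bind unfolded stretches of other proteins and help them to fold, to cross membranes or to reach degradation. HSP70 proteins work in cycles of ATP hydrolysis that J-domain (DNAJ) proteins start and nucleotide exchange factors end, and HSP90 proteins act later on a narrower set of clients. In the cytosol, heat shock factor 1 raises a small group of these genes during protein stress by binding heat shock elements in their promoters, whereas in the ER the unfolded protein response raises BiP and its partners through ER stress elements. Microglia that have taken up amyloid have taken in an aggregated, misfolded protein, and the study compared cells with and without amyloid inside them.

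Promoter sequences show which members carry the letters of these elements. RefSeq promoters (mouse build GRCm38.p6, 250 bases before to 50 bases after the transcription start) were matched for 51 of the 62 members. The head-to-head unit pair of the heat shock element, GAANNTTC, was present in 10 of these 51 genes, in 9.04% of all genes with a promoter and in 7.86% of all 32851 promoters. The tail-to-tail pair, TTCNNGAA, was present in 5 of 51, in 9.60% of genes and in 8.52% of promoters, and either pair in 12 of 51, in 17.0% of genes and in 15.1% of promoters. The longer run of 3 units, GAANNTTCNNGAA, which contains both pairs, was present in Dnajb6, Hspd1 and Hspe1, in 0.662% of genes and in 0.603% of promoters. The ER stress element, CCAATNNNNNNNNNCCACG, was present in Hspa5, Hsp90b1 and Dnajc3, in 0.137% of genes and in 0.119% of promoters. All searches covered both strands. A match is a description of the letters and not evidence of a bound site. The lack of a match covers only these exact letters within this window. Members without a matched promoter were not searched.

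The promoters of a stress-inducible HSP70 gene (Hspa1a), of the J-protein gene that was lower in both TG groups (Dnaja1) and of the mitochondrial co-chaperonin gene that was higher in TG Me-X04+ cells (Hspe1) are printed 5′ to 3′, Dnaja1 as a stretch around its element, with the GAA and TTC units of the heat shock element in capitals.
Hspa1a, chr17:34972107-34972406, minus strand: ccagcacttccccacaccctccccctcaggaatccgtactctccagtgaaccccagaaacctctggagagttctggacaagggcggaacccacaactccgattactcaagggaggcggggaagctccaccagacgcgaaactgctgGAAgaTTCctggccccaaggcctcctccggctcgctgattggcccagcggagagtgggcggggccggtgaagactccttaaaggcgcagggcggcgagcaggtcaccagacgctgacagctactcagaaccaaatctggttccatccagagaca
Dnaja1, chr4:40722304-40722391, plus strand: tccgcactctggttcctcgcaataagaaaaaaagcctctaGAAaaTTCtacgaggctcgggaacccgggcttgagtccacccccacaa
Hspe1, chr1:55087898-55088197, plus strand: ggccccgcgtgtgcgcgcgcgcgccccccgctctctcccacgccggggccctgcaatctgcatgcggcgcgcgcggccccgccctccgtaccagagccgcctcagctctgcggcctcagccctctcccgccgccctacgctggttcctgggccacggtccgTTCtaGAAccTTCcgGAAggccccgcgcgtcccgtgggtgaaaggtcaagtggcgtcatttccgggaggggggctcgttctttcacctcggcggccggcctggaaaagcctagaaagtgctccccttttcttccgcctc
Stretches of the promoters of the main ER chaperones of the HSP70 and HSP90 families follow, with the fixed letters of the ER stress element in capitals. Hsp90b1 carried the element on each strand.
Hspa5, chr2:34771985-34772083, plus strand: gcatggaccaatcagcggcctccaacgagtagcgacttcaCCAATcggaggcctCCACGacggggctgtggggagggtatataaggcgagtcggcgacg
Hsp90b1, chr10:86705493-86705694, minus strand: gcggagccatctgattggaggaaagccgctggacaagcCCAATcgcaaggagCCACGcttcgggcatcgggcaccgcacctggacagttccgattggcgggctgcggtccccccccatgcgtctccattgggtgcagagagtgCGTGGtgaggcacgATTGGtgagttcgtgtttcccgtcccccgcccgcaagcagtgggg

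Levels are given as deposited, as log2 RPKM (reads per kilobase of gene, scaled for the depth of the library). A gene was called changed when the p-value of limma, adjusted by Benjamini-Hochberg over the 17951 genes of the table, was under 0.05 and the group means differed by at least 0.7 on the log2 scale (log2FC, given with its standard error). The libraries held 15623664 to 22119327 reads each for WT, between 17216633 and 25184600 for TG Me-X04- and between 22430251 and 27579017 for TG Me-X04+. Of the 62 members, 49 had at least 10 reads in every library, 38 had at least 100, and 5 had no read in at least 1 library. The libraries fell into a pair of sets on the first principal component of their deviations from the group means: set A (WT 1 to 3 and the libraries numbered 1 and 2 of each TG group) and set B (all others). What separates the sets is not given by the labels. Both sets held libraries of every group, so values within each set are given beside some of the calls. The 9 microglial marker genes were all present, with a summed level of 4899 to 7235 RPKM for WT, one of 4305 to 8266 for TG Me-X04- and one of 5482 to 8303 for TG Me-X04+. Of 19 markers of neurons, macroglia, endothelium, border macrophages and blood cells, 16 had a row (Mog, Cldn5 and Cd3e had none) and summed to 8.82 to 27.7, 9.07 to 31.6 and 10.7 to 31.9 RPKM in the same order. None of those 16 was at 3 reads or fewer in every library. Against WT, TG Me-X04+ cells had the microglial genes Tmem119 and P2ry12 and the markers Pecam1 and Snap25 called lower and Flt1 called higher, between the TG groups Tmem119 was lower and Flt1 higher, and no marker was called for TG Me-X04- against WT. The border macrophage markers Lyve1 and Mrc1 stood apart in TG Me-X04+ 1 and 2, Lyve1 at 2.07 and 2.68 log2 RPKM against -0.49 or lower in all other libraries and Mrc1 at 2.85 and 3.27 against 1.88 or lower. Cd163, of the same cells, was at 0.87 and -0.25 there and at -0.41 or lower elsewhere. These 2 libraries also had the highest Dnajb14, Hspb6 and Hspa12a levels. The same held for Hsp90b1, Hspa4 and Dnajc1, which were not called. The part of these markers in the chaperone results was not tested beyond the values within set B and without each library, given with Dnajb14, Hspb6 and Hspa12a. Reads of the mitochondrial genome took 12.6% to 31.3% of a WT library, 20.6% to 44.8% of a TG Me-X04- library and 31.3% to 56.8% of a TG Me-X04+ library, and the part of this shift in the results was not tested beyond a rescaling on all other reads, given below where it changed a result.

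In TG Me-X04- microglia 1 chaperone gene passed the test against WT, Dnaja1, which was lower. In TG Me-X04+ microglia 9 members differed from WT: Dnaja1 and the stress-inducible HSP70 genes Hspa1a and Hspa1b were lower, and Hspa12a, Hspb6, Dnajc9, Dnajb14, Dnajc25 and Hspe1 were higher. Between both TG groups Dnajb14, Dnajc9 and Hspe1 were higher in TG Me-X04+ cells and no member was lower. These counts have to be read against all genes: 0.201% of all genes were called between TG Me-X04- and WT (0.0111% as lower), 5.49% between the TG groups (3.44% as higher) and 14.3% between TG Me-X04+ and WT (8.25% as higher, 6.02% as lower). The 3 of 62 and 9 of 62 members called in the last comparisons are shares close to those of all genes. At an unadjusted p under 0.05, 5, 11 and 21 members passed in the same order, against 5.18%, 18.7% and 27.8% of all genes. In bulk libraries a lower level per cell and fewer cells with the RNA cannot be told apart.

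**Figure D1:**
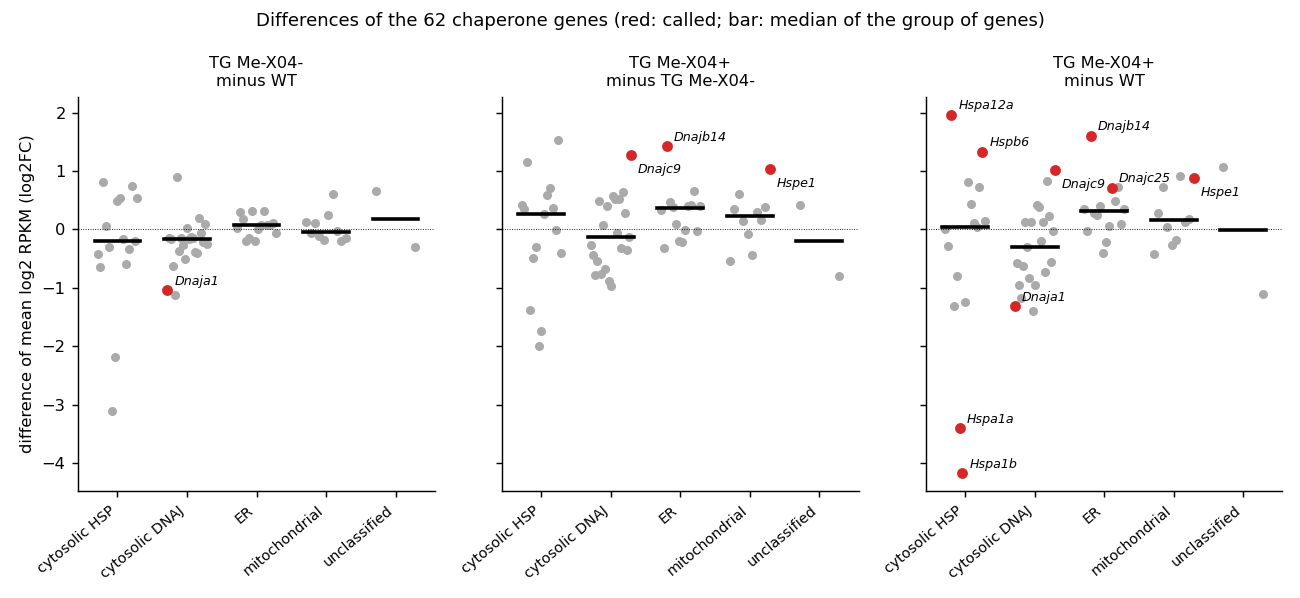
Difference of group means (log2 RPKM, y axis) of each of the 62 chaperone genes by location (x axis), with 1 panel per comparison, red points for called genes and a bar at the median of each group of genes. The stress-inducible genes Hspa1a and Hspa1b lie lowest in the comparison of TG Me-X04+ with WT, and the ER genes have medians of 0.07, 0.36 and 0.31 from left to right.

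The stress-inducible cytosolic HSP70 is made from Hspa1a and Hspa1b, neighbouring genes on chromosome 17 whose products are nearly identical. Hspa1a (ENSMUSG00000091971, chr17:34969190-34972156) was at -1.12, -0.11 and 2.07 log2 RPKM in the lowest, median and highest WT library. It was at -4.95, -1.89, -2.69, -1.0 and -3.77 in TG Me-X04- 1 to 5 and at 0.52, -4.95, -3.24 and -4.95 in TG Me-X04+ 1 to 4. All but 1 library of each TG group lay below every WT library, and TG Me-X04+ 1 stood inside the WT range. The counts behind the lowest values are small: TG Me-X04- 1 had no read, nor had TG Me-X04+ 2 or 4. Against WT, Hspa1a had a log2FC of -3.11 ± 0.92 in TG Me-X04- (limma, adjusted p = 0.389) and of -3.41 ± 0.98 in TG Me-X04+ (adjusted p = 0.0258). The call was made in 9 of 12 alternative analyses and was lost without TG Me-X04+ 2, 3 or 4 in turn (adjusted p of 0.0992 at most).

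Hspa1b (ENSMUSG00000090877, chr17:34956436-34959238) was at -0.83, 0.29 and 2.09 in the lowest, median and highest WT library. It was at -0.97, -4.26, -1.03, -1.0 and -1.44 in TG Me-X04- and at -4.87, -4.87, -1.24 and -3.96 in TG Me-X04+. No TG library reached the lowest WT library in either group. Hspa1b had a log2FC of -2.18 ± 0.75 in TG Me-X04- (limma, adjusted p = 0.635) and of -4.17 ± 0.80 in TG Me-X04+ (adjusted p = 0.0017), and its difference between the TG groups, -1.99 ± 0.86, did not pass (adjusted p = 0.214). The call against WT was made in 12 of 12 alternatives, but the size rests on few reads: TG Me-X04+ 1 and 2 had 0 reads of Hspa1b, and over the alternatives the log2FC ran from -4.86 to -1.14. Within set A the log2FC against WT was -5.73 and within set B -2.72.

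The gene bodies of Hspa1a and Hspa1b share 58.8% of their 50-base words and their promoters are identical at 296 of 300 positions, so reads may have been split between them and neither gene's own value is certain. Their summed reads avoid that split, unless reads that match both genes were dropped or counted for each, which is not given. The sum was 74 to 362 reads in WT with a median of 140, it was 15 to 68 in TG Me-X04- with a median of 26, and it was 55, 0, 30 and 2 in TG Me-X04+ 1 to 4. Per length and depth this was 1.09 to 8.43 RPKM for WT, with 0.32 to 1.00 for TG Me-X04- and with 0.07 to 1.47 for TG Me-X04+. On that scale every TG Me-X04- library and 3 of 4 TG Me-X04+ libraries lay below every WT library. Hspa1a also overlaps 2225 bases of Gm20481 on the other strand, and strandedness of the counting is not given in the sources used here. Immediate early genes that rise during tissue dissociation were measured as a list because inducible HSP70 is sensitive to handling. Of 16 such genes 14 had a row, with a summed level of 133 to 164 RPKM for WT, with 120 to 160 for TG Me-X04- and with 143 to 231 for TG Me-X04+. None of them was called between TG Me-X04- and WT, while against WT the TG Me-X04+ cells had Atf3, Egr1 and Ier3 higher and Socs3 lower, and against TG Me-X04- they had Atf3 higher and Socs3 lower. The part of handling in the Hspa1a and Hspa1b levels was not tested.

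Dnaja1 (ENSMUSG00000028410, chr4:40722150-40737149) encodes a cytosolic J-domain protein that works with HSP70 on folding and on import into mitochondria. It was at 3.17, 3.45 and 3.82 log2 RPKM in the lowest, median and highest WT library, at 2.33, 2.55, 2.36, 2.59 and 2.18 in TG Me-X04- and at 2.37, 2.44, 1.78 and 1.94 in TG Me-X04+. Every TG library of both groups lay below every WT library, and the TG groups overlapped. Against WT the log2FC was -1.04 ± 0.18 in TG Me-X04- (limma, adjusted p = 0.0163) and -1.31 ± 0.19 in TG Me-X04+ (adjusted p = 0.000165), and both comparisons share the WT libraries. The difference between the TG groups was -0.27 (adjusted p = 0.532). In sets A and B the log2FC of TG Me-X04- against WT was -1.17 and -0.94. The call in TG Me-X04- was made in 11 of 13 alternatives, being lost with median centring and with the replicate block (adjusted p of 0.113 at most), and was lost without TG Me-X04- 1, 3 or 5 in turn (0.0724 at most), whereas that in TG Me-X04+ was made in 13 of 13 alternatives and without any 1 library. The replicate block is a term for the replicate number over all 16 libraries, so it also joins WT and TG libraries of different animals. Of the gene's 50-base words 11.9% also occur in other genes, and the gene overlaps Smu1 by 608 bases.

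Not overlapping with WT were 2 of 62 members in TG Me-X04-, Dnaja1 and Hspa1b, against 1.06% of all genes. The groups of TG Me-X04+ and WT did not overlap for 9 members against 10.5% of all genes, and both TG groups did not overlap for 7 members against 7.93%. The last 2 shares are a little above those of all genes.

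The constitutive HSP70 and both HSP90 genes of the cytosol were not called in any comparison. Hspa8, the constitutive HSP70, was at 5.72, 5.92 and 6.30 log2 RPKM in the lowest, median and highest WT library, at 5.46, 5.74, 6.02, 5.66 and 5.43 in TG Me-X04- and at 5.54, 6.32, 6.28 and 5.97 in TG Me-X04+. Hsp90ab1, the constitutive cytosolic HSP90, was at 6.50, 6.86 and 7.09 in WT, at 5.89, 6.29, 6.61, 6.25 and 5.97 in TG Me-X04- and at 5.99, 6.58, 6.77 and 6.87 in TG Me-X04+. Hsp90aa1, its inducible partner, was at 3.74, 3.93 and 4.17 in WT, at 3.36, 3.82, 3.66, 3.40 and 3.48 in TG Me-X04- and at 3.82, 4.15, 3.79 and 4.10 in TG Me-X04+. For both HSP90 genes 4 of 5 TG Me-X04- libraries lay below every WT library. As deposited, all 3 genes had their lowest group mean in TG Me-X04- cells. With quantile normalization the difference between the TG groups turned negative for Hspa8 and Hsp90ab1, so this order was not kept for them. The log2FC of TG Me-X04- against WT was -0.33 for Hspa8, -0.64 for Hsp90ab1 and -0.42 for Hsp90aa1 (limma, adjusted p = 0.999, 0.388 and 0.682). TG Me-X04+ cells differed from WT by 0.04 for Hspa8, -0.29 for Hsp90ab1 and less than 0.01 for Hsp90aa1, and none of these values passed the test. The 15 cytosolic heat shock protein genes together took 24.0% ± 2.96 of the summed chaperone level of WT libraries (SD, n = 7), 19.6% ± 3.43 of TG Me-X04- (n = 5) and 19.2% ± 2.27 of TG Me-X04+ libraries (n = 4), with ranges that overlapped. Their summed level was 237 ± 25.4 RPKM for WT, 177 ± 24.3 for TG Me-X04- and 236 ± 23.0 for TG Me-X04+. On this scale the lower share of the last group went with a higher sum of all members and not with a lower sum of these genes. Such sums depend on the scaling of libraries. With quantile normalization the log2FC of Hspa8 against WT turned negative in TG Me-X04+ cells, so this reading is given for the deposited scaling only.

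Dnajb1, the main stress-inducible J-protein of the cytosol, was at 4.25, 4.67 and 5.54 in the lowest, median and highest WT library. It was at 4.29, 4.64, 4.52, 4.82 and 2.60 in TG Me-X04- and at 2.38, 4.30, 4.17 and 3.68 in TG Me-X04+. Of the TG Me-X04+ libraries 3 lay below every WT library and the other just above the lowest, whereas in TG Me-X04- 4 of 5 stood inside the WT range. The log2FC against WT was -0.63 for TG Me-X04- and reached -1.17 ± 0.41 for TG Me-X04+ (limma, adjusted p = 0.0650), and the latter was called in 5 alternatives (a term for the sets of libraries, the replicate block, quantile normalization, the scaling on non-mitochondrial reads and a fit on the compared groups alone). Single libraries moved both values, to -0.23 without TG Me-X04- 5 and to -0.75 without TG Me-X04+ 1.

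**Figure D2:**
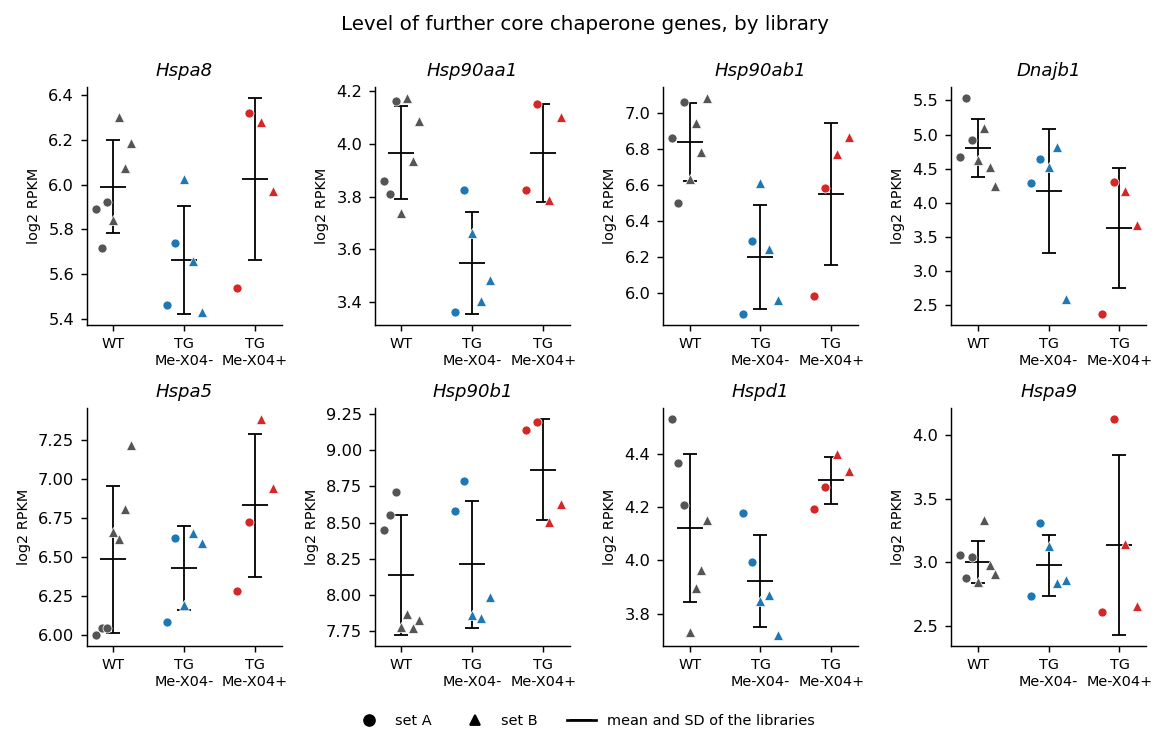
Level (log2 RPKM, y axis) of 8 core chaperone genes in each library by group (x axis), with points for libraries, shapes for the sets A and B, and bars for the mean and SD. Hsp90b1 is near 8.5 or above in all 4 TG Me-X04+ libraries and in set A of the other groups, and Hsp90ab1 is lowest in TG Me-X04- cells.

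Hspa12a (ENSMUSG00000025092, chr19:58795750-58943654) encodes a divergent member of the HSP70 family. It was at -0.94, -0.20 and 1.40 log2 RPKM in the lowest, median and highest WT library, at 1.11, 1.53, 0.27, 0.95 and 0.68 in TG Me-X04- and at 2.95, 2.42, 1.56 and 1.33 in TG Me-X04+. The TG Me-X04+ libraries lay above every WT library except for TG Me-X04+ 4, which was just under the highest of them. The log2FC of TG Me-X04+ against WT was 1.97 ± 0.47 (limma, adjusted p = 0.0081), it was called in all 13 alternatives and without any 1 library, and it came to 1.69 within set A and 2.02 within set B. TG Me-X04- cells were between the other groups, with a log2FC of 0.81 against WT that did not pass. Hspa12a was higher in set A than in set B by 1.17 on average over the groups.

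Hspb6 (ENSMUSG00000036854, chr7:30552178-30555443) encodes HSP20, a small heat shock protein best known from muscle. It was at 0.20, 1.09 and 2.73 in the lowest, median and highest WT library, at 1.46, 0.82, 0.58, 0.96 and 1.32 in TG Me-X04- and at 3.38, 2.88, 2.39 and 1.62 in TG Me-X04+. All TG Me-X04+ libraries lay above all TG Me-X04- libraries, but WT 1 and WT 3 stood within the TG Me-X04+ range. It was higher in TG Me-X04+ than in WT by 1.33 ± 0.42 (limma, adjusted p = 0.0403), a call made in 8 of 13 alternatives and kept only without WT 1, WT 3 or TG Me-X04+ 4 when 1 library was left out (adjusted p of 0.131 at most). Its difference between the TG groups, 1.54 ± 0.45, missed the threshold (adjusted p = 0.0540) and passed when the 4 TG animals with both libraries were paired (adjusted p = 0.0334). Within set A it was 1.99 and within set B 1.05.

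Dnajc9 (ENSMUSG00000021811, chr14:20384638-20388910) encodes a nuclear J-protein that binds histones H3 and H4. It was at 1.73, 2.38 and 3.17 in the lowest, median and highest WT library, at 2.46, 2.33, 1.50, 2.53 and 2.30 in TG Me-X04- and at 3.16, 4.52, 3.05 and 3.25 in TG Me-X04+. All TG Me-X04+ libraries lay above all TG Me-X04- libraries, and TG Me-X04+ 2 stood apart above the rest. The log2FC was 1.28 ± 0.36 between the TG groups (limma, adjusted p = 0.0457) and 1.02 ± 0.34 against WT (adjusted p = 0.0497). Both calls were at the threshold: that between the TG groups was made in 7 of 14 alternatives and without TG Me-X04+ 3, was lost without any other single library (adjusted p of 0.153 at most), and had an adjusted p of 0.104 with the replicate block over all libraries and of 0.0482 over the 4 paired animals. The call against WT was made in 7 of 13 alternatives and kept only without WT 1, WT 3 or TG Me-X04+ 3 (adjusted p of 0.204 at most).

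**Figure D3:**
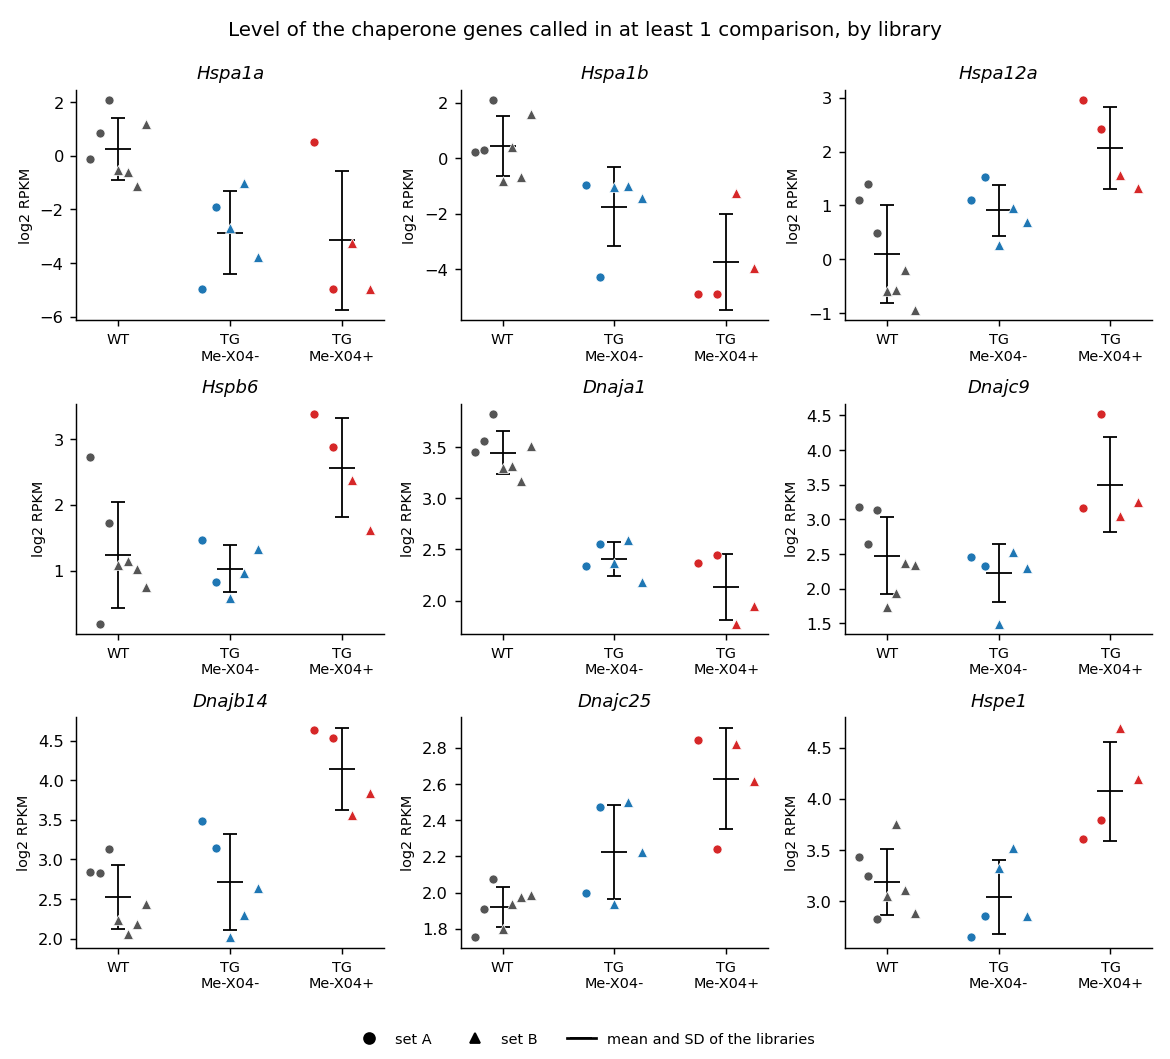
Level (log2 RPKM, y axis) of the 9 members called in at least 1 comparison, in each library by group (x axis), with points for libraries, shapes for the sets A and B, and bars for the mean and SD. All 9 TG libraries lie below all 7 WT libraries for Dnaja1, and all 4 TG Me-X04+ libraries lie above every other library for Dnajb14.

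Over all 21 cytosolic DNAJ genes, Dnaja1 and Dnajc9 included, the median log2FC against WT was -0.17 for TG Me-X04- and was -0.30 for TG Me-X04+, beside 0.01 and -0.11 for all genes. In TG Me-X04- 4 of the 21 were above 0, against 51.6% of all genes, and in TG Me-X04+ 8 of 21, against 44.1%. Dnaja2, a J-protein of the same type as Dnaja1, and Dnajc7, which also binds HSP90, had adjusted p of 0.0364 and 0.0439 in TG Me-X04+ but changed by less than the fold threshold, -0.57 for each. The lowest value of this compartment in TG Me-X04+ was that of Dnajb7 (-1.39 ± 0.53, limma, adjusted p = 0.093), which had 3 reads in TG Me-X04+ 2 and was at -0.81 without that library. In TG Me-X04- the extremes were Dnajb2, a J-protein with ubiquitin-interacting motifs, at 0.89 and Dnajb13, known from sperm tails and cilia, at -1.13, and neither passed. Each rested on 1 library: without WT 3 (2 reads) Dnajb2 was at 0.19, and without TG Me-X04- 1 (0 reads) Dnajb13 was at -0.36. Between the TG groups the lowest was Dnajc12 at -0.97, whose known partners are the aromatic amino acid hydroxylases, and without TG Me-X04+ 3 (3 reads) it was at -0.25.

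The share of the cytosolic DNAJ genes in the summed chaperone level is taken within each library and so does not depend on how libraries are scaled to each other. It was 17.0% ± 1.04 for WT (SD, n = 7), against 15.4% ± 1.81 for TG Me-X04- (n = 5) and only 11.3% ± 0.23 for TG Me-X04+ (n = 4). The TG Me-X04+ libraries ran from 11.1% to 11.6% and the lowest of the others was at 12.8%, so this group did not overlap with either of the rest. The summed level of these genes was 169 ± 23.5, 139 ± 10.4 and 140 ± 17.2 RPKM in the same order, so between the TG groups the sums differed by less than their SD, and the sum of the ER genes in the denominator was 524 ± 143 and 763 ± 126 RPKM. No test was made of this sum.

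Of the 14 ER members, Dnajb14 and Dnajc25 were called. Dnajb14 (ENSMUSG00000074212, chr3:137867675-137916557) encodes a J-protein of the ER membrane whose J-domain faces the cytosol. It was at 2.06, 2.44 and 3.13 log2 RPKM in the lowest, median and highest WT library, at 3.49, 3.15, 2.02, 2.30 and 2.64 in TG Me-X04- and at 4.63, 4.53, 3.56 and 3.84 in TG Me-X04+. All 4 TG Me-X04+ libraries lay above all others, and the order of set A above set B was seen in each group. The log2FC was 1.42 ± 0.33 between the TG groups (limma, adjusted p = 0.0173; 1.26 in set A and 1.38 in set B, where the border macrophage markers were low) and 1.61 ± 0.31 against WT (adjusted p = 0.0015). The replicate block left the call between the TG groups (adjusted p = 0.0216), and pairing the 4 TG animals gave 0.0048. It was made in 13 of 14 alternatives and lost with only the compared groups in the fit (adjusted p = 0.0597), as well as without TG Me-X04+ 1 or TG Me-X04+ 2 (adjusted p = 0.0512 and 0.0597). Its close partner Dnajb12, also in the ER membrane, was not called, with a log2FC of -0.31 between the TG groups and of -0.02 against WT.

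Dnajc25 (ENSMUSG00000070972, chr4:58995062-59025573), a J-protein gene listed here with the ER, was at 1.75, 1.94 and 2.07 in the lowest, median and highest WT library. It was at 2.00, 2.47, 1.94, 2.50 and 2.23 in TG Me-X04- and at 2.84, 2.24, 2.82 and 2.61 in TG Me-X04+. Every TG Me-X04+ library lay above every WT library, and TG Me-X04- overlapped with both. The log2FC of TG Me-X04+ against WT was 0.71 ± 0.20 (limma, adjusted p = 0.0217), just past the fold threshold, and it was called in 9 of 13 alternatives and lost without WT 1, WT 4, TG Me-X04+ 1 or TG Me-X04+ 3 (adjusted p of 0.0639 at most). Dnajc25 overlaps the gene Gm20503 on the same strand over 22364 bases, so its reads cannot be wholly assigned.

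The abundant chaperones of the ER lumen did not pass the test. Hsp90b1 encodes GRP94, the HSP90 of the ER, whose clients include integrins and Toll-like receptors. It was at 7.77, 7.87 and 8.71 in the lowest, median and highest WT library, at 8.58, 8.79, 7.86, 7.84 and 7.98 in TG Me-X04- and at 9.14, 9.20, 8.50 and 8.63 in TG Me-X04+. Within set A and within set B the TG Me-X04+ libraries lay above those of both other groups, and over both sets the groups overlapped. The log2FC was 0.66 ± 0.29 between the TG groups (limma, adjusted p = 0.224) and 0.73 ± 0.27 against WT (adjusted p = 0.081). With a term for the sets the adjusted p between the TG groups was 0.0012 (limma). The sets were found from these same values, so the term lowers the residual spread by construction. Over the 4 paired animals the adjusted p was 0.0188 at a log2FC of 0.60, below the fold threshold. With quantile normalization the log2FC turned negative between the TG groups and in TG Me-X04+ against WT.

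Hspa5 encodes BiP, the ER HSP70 and the classic marker of the unfolded protein response. It was at 6.00, 6.62 and 7.22 in the lowest, median and highest WT library, at 6.09, 6.62, 6.19, 6.65 and 6.59 in TG Me-X04- and at 6.28, 6.72, 7.38 and 6.94 in TG Me-X04+. The 3 groups overlapped throughout, and the log2FC against WT was -0.06 for TG Me-X04- and was 0.35 for TG Me-X04+. Dnajb9 encodes ERdj4, a J-protein that is induced with BiP, and it followed the sets of libraries. It was higher in set A than in set B by 1.73 among WT, by 2.00 among TG Me-X04- and by 1.99 among TG Me-X04+ libraries. Among the ER members Dnajc10, the ER reductase ERdj5, and Dnajc14 had the highest and lowest log2FC in TG Me-X04- against WT, 0.31 and -0.20, and neither passed.

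The ER compartment made up 51.1% ± 2.87 of the summed chaperone level of WT (SD, n = 7), then 56.5% ± 5.65 of TG Me-X04- (n = 5) and 61.4% ± 3.45 of TG Me-X04+ (n = 4). Every TG Me-X04+ library, from 58.2% upward, lay above the highest WT library at 55.1%, and TG Me-X04- spanned both. Hsp90b1 alone was the most abundant member, at 28.8% ± 5.29, 33.0% ± 5.03 and 38.3% ± 6.19 of the sum, and Hspa5 stayed at 9.73%, 9.75% and 9.77%. The summed level of all 62 members was 995 ± 115, 917 ± 163 and 1238 ± 157 RPKM in the same order. Over the ER members the median log2FC was 0.07 in TG Me-X04- against WT, 0.36 between the TG groups and 0.31 in TG Me-X04+ against WT. These last medians depended on scaling: with scaling on non-mitochondrial reads they were 0.18, 0.08 and 0.15, and with quantile normalization 0.08, -0.06 and -0.01.

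Of the 10 mitochondrial members Hspe1 was called. Hspe1 (ENSMUSG00000073676, chr1:55088132-55091307) encodes HSP10, the lid of the mitochondrial chaperonin whose barrel is HSP60, the product of Hspd1. It was at 2.83, 3.11 and 3.75 in the lowest, median and highest WT library, at 2.65, 2.86, 3.33, 3.52 and 2.86 in TG Me-X04- and at 3.61, 3.79, 4.69 and 4.19 in TG Me-X04+. All TG Me-X04+ libraries lay above all TG Me-X04- libraries, and TG Me-X04+ 1 fell below WT 5. The log2FC was 1.03 ± 0.26 between the TG groups (limma, adjusted p = 0.029; 0.95 in set A and 1.21 in set B) and 0.89 ± 0.25 against WT (adjusted p = 0.0205). The replicate block, which also joins WT libraries of other animals, took away the call between the TG groups (limma, adjusted p = 0.0555). Pairing of the 4 TG animals alone left the call (0.0239), which was made in 10 of 14 alternatives. It was lost without TG Me-X04- 1, 2 or 5 or TG Me-X04+ 3 or 4 (adjusted p of 0.0874 at most), and the call against WT without TG Me-X04+ 3 or 4 (0.0836 at most). Of its 50-base words 18.4% occur in other genes, processed pseudogenes among them.

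Hspd1 and Hspe1 lie head to head on chromosome 1 and their annotated starts overlap by 112 bases, so the run of 4 heat shock units in capitals above, which holds 2 overlapping matches of the 3-unit element, is in both promoters. Hspd1 was at 3.73, 4.15 and 4.53 in the lowest, median and highest WT library, at 4.18, 3.99, 3.85, 3.87 and 3.72 in TG Me-X04- and at 4.19, 4.28, 4.40 and 4.34 in TG Me-X04+. The TG groups did not overlap, though their nearest libraries were at 4.18 and 4.19, and WT spanned both. Its log2FC was 0.38 between the TG groups (limma, adjusted p = 0.280) and 0.18 in TG Me-X04+ against WT. Hspa9, the mitochondrial HSP70 of protein import, was at 2.85, 2.98 and 3.33 in WT, at 2.74, 3.31, 3.13, 2.84 and 2.86 in TG Me-X04- and at 2.61, 4.13, 3.15 and 2.66 in TG Me-X04+. It showed no order among the groups, and TG Me-X04+ 2 alone stood high. Over the mitochondrial members the median log2FC was -0.04, 0.23 and 0.16 in the 3 comparisons. The extremes were Dnaja3, a mitochondrial J-protein and partner of Hspa9, at -0.54 between the TG groups (-0.096 without TG Me-X04+ 1) and Dnajc4 at 0.61 for TG Me-X04- and at 0.91 ± 0.35 for TG Me-X04+ against WT (adjusted p = 0.100 in limma for the last).

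Over all 62 members the median log2FC was -0.14 in TG Me-X04- against WT, 0.15 between the TG groups and 0.10 in TG Me-X04+ against WT, beside 0.01, -0.09 and -0.11 for all genes. Members above 0 numbered 25, 34 and 35 in the same order, against 51.6%, 44.4% and 44.1% of all genes. The direction of the calls in TG Me-X04+ depended on scaling. With scaling on non-mitochondrial reads, which moved the median of all genes to 0.13, -0.37 and -0.27, 2 members were called higher and 8 lower against WT in place of 6 and 3, as calls over all genes went from 1481 higher and 1081 lower to 1227 and 1528, and 1 was called in each direction between the TG groups (Dnajb14 higher and Dnaja2 lower). With quantile normalization 2 were higher and 5 lower against WT. Dnaja1, Hspa1b, Hspa12a and Dnajb14 were called in the same direction under all of these.

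The group means fell into every order. TG Me-X04- was the highest group for 13 members and the lowest for 22, while 15 fell and 12 rose from WT over TG Me-X04- to TG Me-X04+. The mean difference between set A and set B exceeded 1 in either direction for 8 of 62 members (12.9%) and for 29.8% of all genes. Dnajb9, Dnajc21, Hspa4, Hspa12a and Hspb11 were the 5 members above 1 in set A, and Hspbp1, Hspa1l and Dnajb13 the 3 below -1.

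**Figure D4:**
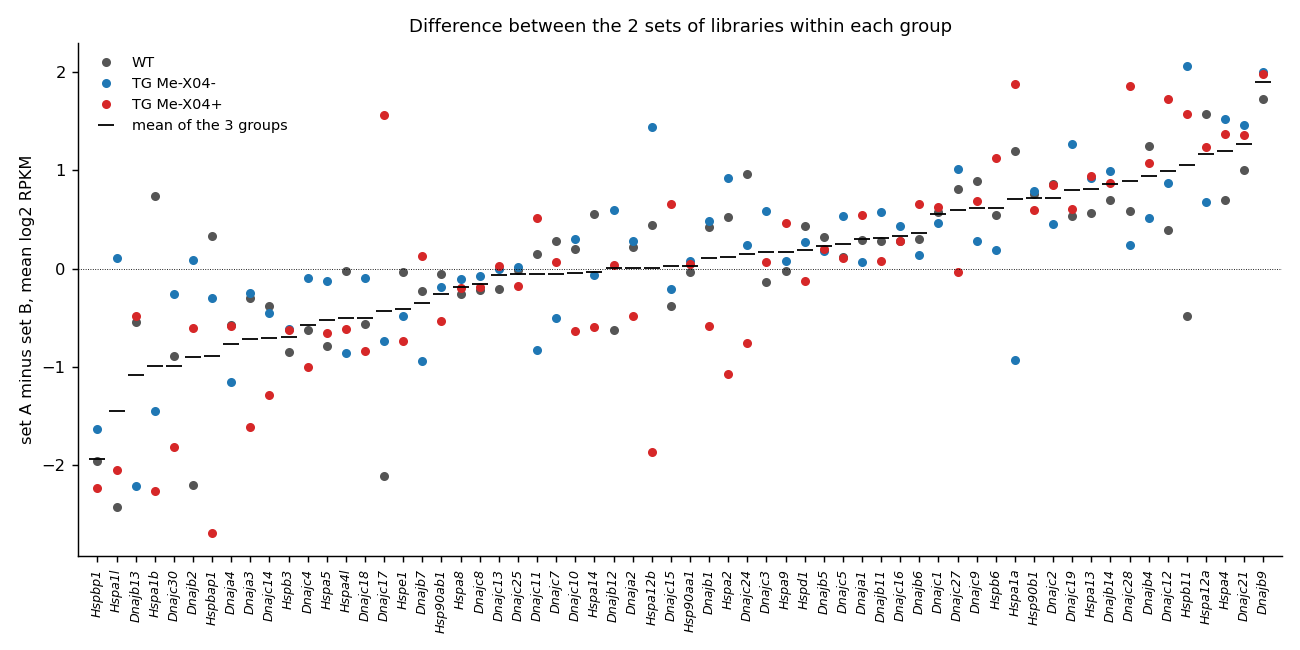
Difference of the mean log2 RPKM of set A and set B (y axis) for the members of the x axis within each group, with colored points for the groups and a bar for their mean. Dnajb9 is about 2 higher in set A in all 3 groups and Hspbp1 is lower in set A in all 3, and 8 of the 62 members have a mean beyond 1 in either direction.

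Genes that work with the chaperones were taken from lists of 25 heat shock factors and cytosolic co-chaperones, 14 chaperonin and prefoldin subunits, 20 ER folding and unfolded protein response genes and 9 mitochondrial co-chaperones and proteases. None of these 68 was called between TG Me-X04- and WT, 2 were called higher between the TG groups, and 4 were called higher and 3 lower between TG Me-X04+ and WT, where 0.201%, 5.49% and 14.3% of all genes were called. Bag1, a nucleotide exchange factor of HSP70, was at 5.63, 6.08, 5.82 and 5.57 log2 RPKM in TG Me-X04+, above every other library, with a log2FC of 1.44 ± 0.25 between the TG groups (limma, adjusted p = 0.0025) and of 1.81 against WT. Sdf2l1, an ER protein that works with BiP and its J-proteins, was at 6.06, 6.41, 6.01 and 5.94, also above every other library, with a log2FC of 1.15 ± 0.24 between the TG groups (adjusted p = 0.0091) and of 1.47 against WT. Both genes were thus higher in TG Me-X04+ cells than in either other group.

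Within the ER list the calls against WT went in opposite directions. Sdf2l1 and Calr, the lectin chaperone calreticulin, were higher, Calr by 0.77 ± 0.17 (limma, adjusted p = 0.0039). With scaling on non-mitochondrial reads the log2FC of Calr fell below the fold threshold of 0.7. Other alternatives are not given here for the called genes of these lists. Herpud1, a part of ER-associated degradation, and Ddit3, the stress transcription factor CHOP, were lower, by log2FC of -1.35 ± 0.36 and -1.08 ± 0.30 (adjusted p = 0.0155 and 0.0203). Hscb, a mitochondrial J-protein for iron-sulfur cluster assembly, was higher by 1.48 ± 0.32 (adjusted p = 0.0038), and Ahsa2, related to the activator of the HSP90 ATPase, was lower by a log2FC of -0.93 ± 0.20 (adjusted p = 0.0042). None of the chaperonin and prefoldin genes was called in any comparison.

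Hsf1, the transcription factor of the heat shock response, had a log2FC against WT of -0.25 for TG Me-X04- and of -0.57 for TG Me-X04+, and neither passed. Hsph1 encodes HSP110, an exchange factor of HSP70 that is induced with it. It was at 2.39, 3.50 and 5.49 in the lowest, median and highest WT library, at 3.36, 3.47, 1.94, 1.85 and 1.16 in TG Me-X04- and at 3.03, 3.54, 1.79 and 2.14 in TG Me-X04+. Set A was above set B in every group, and within each set the TG libraries lay below the WT libraries. The log2FC of TG Me-X04- against WT was -1.26 ± 0.55 (limma, adjusted p = 0.915). It passed with a term for the sets of libraries (adjusted p = 0.0440), but the sets were found from these same data.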

How the data were processed

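RNA-seq of FACS-sorted mouse microglia was analysed in 16 libraries (7 WT, 5 TG Me-X04-, 4 TG Me-X04+), grouped by their labels. The authors deposited 1 table of log2 RPKM values per gene and library. Per the labels and the study's methods, reads were trimmed with Trim Galore 0.4.4, aligned to GRCm38 with STAR 2.5.4b and counted on Gencode genes. Low genes were filtered and libraries were scaled by TMM. The study's methods set a limit on the number of places to which a read could align. Which library ran on which sequencer, strandedness and how multi-mapping reads were counted are not given in the sources used here. The RNA was amplified, so reads are not independent molecules. The table also holds gene lengths, which served to recover reads, and the authors' own comparisons, that is log2 fold changes, deposited p-values and deposited scores (moderated statistics and log odds), and no value of those comparisons was used.

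Whole reads were recovered from the log2 RPKM steps (100% of values whole within 0.01) and served for depth and for 1 alternative test. The main test was limma 3.58.1 (R 4.3.3, empirical Bayes with trend) on the deposited values, 3 groups in 1 fit without covariates, two-sided, with Benjamini-Hochberg adjustment over 17951 genes. Intervals are standard errors, or SD over libraries. The deviations of TG libraries of the same animal had a mean r of 0.317 (0.292 to 0.329 per pair). Other animals of the same set had 0.272 (0.221 to 0.332), an overlapping range, and pairs across the sets had -0.282. These values do not tell an animal from its set. The labels give such libraries the same animal, so the replicate number pairs the TG groups. Values with the replicate block are given where they change a call. That block covered all 16 libraries, so it also joined WT libraries to TG libraries of the same number from other animals. Only the fit on the 4 TG animals with both libraries pairs by animal alone. Alternatives were other scalings, pseudocount, filter, variance settings, a fit on the compared groups alone, the replicate block, a term for the library sets, voom on recovered reads and leaving out each library. The values within library sets, the term for the sets and the scaling on non-mitochondrial reads are alternatives chosen after seeing the data. The sets were found from the values that were tested, so the term for them lowers the residual spread by construction. With it the calls over all genes rose from 36 to 101 for TG Me-X04- against WT and from 986 to 2142 between the TG groups. For TG Me-X04+ against WT they rose from 2562 to 3919. The test was checked on simulated reads of independent libraries, for TG Me-X04+ against TG Me-X04- only. The simulation held no library sets and no shared animals, so it does not show how the test behaves with them.

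Members, locations and gene lists were chosen with earlier results of these data known. Named genes were the core chaperones, each called member, the extremes of each location in each comparison, called genes of the pathway lists, Hsf1 and Hsph1. Genes named outside this rule (Dnajb9, Dnajb12 and those listed for sets, overlap or promoter elements) were chosen after their values were seen. Promoters came from RefSeq tables, and positions of genes, overlaps and 50-base words from GENCODE on GRCm38. Python 3.11.15 (numpy 2.4.6, pandas 2.3.3, matplotlib 3.10.9) was used for summaries and plots.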

Additional observations from a re-analysis of the deposited data

Results flagged for a closer look

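Levels of 26 named members were screened within each group for a single library far from the others (Dixon's gap over range at the 95% level; only groups of 4 to 10 libraries). Of 78 groups 9 met this (11.5%). Chance gives about 1 in 20, but the named members include the extremes of log2FC of each location. Such extremes can rest on 1 library, so the share cannot be compared with that of chance. Dnajc9 did so in both TG groups, with TG Me-X04- 3 at 1.50 log2 RPKM (next 2.30) and TG Me-X04+ 2 at 4.52 (next 3.25). Dnajb1 was at 2.60 in TG Me-X04- 5 (next 4.29), and Dnaja3 at 1.71 in TG Me-X04- 2 (next 2.09). Hspa1b was at -4.26 in TG Me-X04- 2 (next -1.44), which is 1 read, while the near-identical Hspa1a had 14 reads there. Dnajb13 was at -3.90 in TG Me-X04- 1 (0 reads, next -0.44) and at 0.49 in TG Me-X04+ 4 (next -0.51). Dnajb2 was at -4.21 in WT 3 (2 reads, next 0.08), and Dnajc12 at -2.04 in TG Me-X04- 5 (next -0.30). TG Me-X04- 2 and TG Me-X04- 5 held 2 of these values each. No cause was tested.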

How the results depend on the processing

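In TG Me-X04- against WT the single call (Dnaja1) fell to 0 with median centring and with the replicate block, and the count ran from 0 to 1 with a library left out (0 without TG Me-X04- 1, 3 or 5). Between the TG groups the 3 calls became 1 with quantile normalization, 0 with only the compared groups in the fit, 1 with the replicate block and 5 with a term for the library sets (adding Hspb6 and Hspa12a), while the 986 calls over all genes became 828, 470, 894 and 2142, and ran from 1 to 2 with a library left out: 1 without TG Me-X04- 1, 2 or 5 or TG Me-X04+ 1 or 2, and 2 without any of the others. In TG Me-X04+ against WT the 9 calls ran from 6 to 10 with a library left out and from 6 to 13 otherwise. No animal gave both WT and TG libraries, so replicate numbers pair no comparison with WT, and with the block this count was 6.

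Single genes that turned in sign were uncalled throughout. For TG Me-X04- against WT these were Hsp90b1 (-0.032 with quantile normalization, -0.062 with the block), Hspa5 (0.15 with the block, 0.057 on non-mitochondrial reads), Hspa9 (0.0046 with quantile normalization, 0.085 on non-mitochondrial reads) and Hspe1 (0.041 with library weights). Between the TG groups quantile normalization turned Hsp90ab1 (-0.29), Hsp90b1 (-0.17), Hspa1a (0.49), Hspa5 (-0.24) and Hspa8 (-0.16), a pseudocount of 1 turned Hspa1a (0.12), non-mitochondrial reads turned Hspa9 (-0.12) and Hsph1 (-0.0017), and the block turned Hsph1 (-0.0039, and -0.027 over paired animals). For TG Me-X04+ against WT, Hsp90aa1 turned with median centring (0.018) and the block (0.037), quantile normalization turned Hsp90b1 (-0.21), Hspa5 (-0.30), Hspa8 (-0.51) and Hspd1 (-0.027), and non-mitochondrial reads turned Hspa8 (-0.12) and Hspa9 (-0.030). With a library left out, ranges crossing 0 were, for TG Me-X04- against WT, Hsp90b1 -0.071 to 0.17, Hspa5 -0.14 to 0.066 and Hspa9 -0.11 to 0.031. Between the TG groups they were Hsf1 -0.59 to 0.028, Hspa1a -1.52 to 0.30, Hspa9 -0.17 to 0.33 and Hsph1 -0.033 to 0.55, and for TG Me-X04+ against WT Dnaja3 -0.73 to 0.024, Hsp90aa1 -0.063 to 0.059, Hspa8 -0.062 to 0.20 and Hspa9 -0.20 to 0.31. The cause was not tested. Over all results, 868 of the values under other settings and 694 of those with a library left out kept direction and side of the threshold.

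Depth limits Hspa1a, Hspa1b, Dnajb2, Dnajb13 and Dnajc12, which had libraries with few or no reads.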

Other observations

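Of the rows without a deposited symbol, 6 carry reference names of chaperone pseudogenes and were not counted as members. Hspe1-ps3 rose by 1.18 log2 from TG Me-X04- to TG Me-X04+ libraries (limma, adjusted p = 0.0206), as Hspe1 itself was, and Dnajc19-ps was higher in TG Me-X04+ than in WT by 1.33 (adjusted p = 0.0266), while Dnajc19 was not called (0.04). Whether these reads arose from the pseudogenes or from their parent genes was not tested.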
